A study of Mus musculus with 4 samples.

Results

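The nuclear genes for the subunits of oxidative phosphorylation were followed in mouse embryonic stem cells with and without Gcn5. They were taken by gene symbol (Nduf followed by a, b, c, s or v and a digit, Uqcr, Sdha to Sdhd, Cox4 to Cox8, and Atp5), without Ndufa4l2 and without names that end in -ps or Rik. This gave 84 of the 23259 genes that had a value in all 4 libraries, namely 36 for complex I, 4 for complex II, 8 for complex III, 19 for complex IV and 17 for complex V. Of these, 80 averaged 1 FPKM or more and were tested. The libraries came from 2 clones without Gcn5 (KO, 4C2 and 6C4) and 2 clones with it (WT, 4-1 and 6-1). All go back to stem cell lines derived from embryonic day 3.5 blastocysts of Gcn5 flox/flox mice, with a male karyotype, and by the clone names founder lines 4 and 6 each gave 1 KO and 1 WT clone. Both genotypes were picked as colonies from transfected cultures that were sorted after 72 hours, in which an EGFP-Cre fusion was expressed transiently from the EF1α promoter. The KO clones came from GFP-positive cells and lack exons 3 to 18 of Gcn5, and the WT clones came from GFP-negative cells and keep both floxed alleles. Each library is 1 clone. The medium held LIF at 1000 U/mL and 15% serum, and the cells grew on mitomycin-treated fibroblasts as feeders. The sources used here do not say whether feeders were removed before RNA isolation. Paired values given for KO or for WT are those of the clones of lines 4 and 6, in that sequence.

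Complexes I and II pass electrons from NADH and succinate to ubiquinone, complex III passes them on to cytochrome c, and complex IV, cytochrome c oxidase, hands them to oxygen. Complexes I, III and IV pump protons across the inner mitochondrial membrane, and complex V, ATP synthase, uses the gradient to make ATP. Except for complex II, each complex joins subunits encoded in the nucleus with subunits encoded in mitochondrial DNA; transcripts of mitochondrial DNA were not analysed here. Stem cells in serum and LIF run both glycolysis and respiration.

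The deposited values are FPKM, fragments per transcript length and sequencing depth, normalized to spike-in RNA, so levels of different genes can be compared per length. The depth behind them is unknown. Kat2a, which encodes Gcn5, stood at 11.5 and 11.5 FPKM in KO, against 38.7 and 34.4 FPKM in WT. Both KO clones were below both WT clones (log2 fold change -1.58, SE 0.23, limma adjusted p = 0.0112). Stem cell markers were high in all 4 libraries, with a summed level of 3428 and 3527 FPKM in KO and 5393 and 4272 FPKM in WT over 10 genes such as Pou5f1 and Nanog. The 14 feeder fibroblast markers summed to 247 and 348 FPKM in KO and 375 and 299.7 FPKM in WT, and the 6 heart and skeletal muscle markers to between 0.775 and 1.90 FPKM. The endoderm markers summed to 1.31 and 3.74 FPKM in KO and 2.70 and 5.07 FPKM in WT, and the trophectoderm markers to 5.11 and 4.64 FPKM in KO and 6.90 and 4.40 FPKM in WT. Most genes were listed lower in KO: the median log2 difference over 11932 genes, on log2(FPKM + 1), was -0.44 in line 4 and -0.19 in line 6, and -0.32 over both. For marker sums in such bulk libraries, fewer cells of a type and less of their transcripts per cell cannot be told apart. Spike-in mix 1 or 2 was added to 1 µg of RNA, with no mix tied to a clone. The source of the general shift between KO and WT was not tested.

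Transcripts of the respiratory complexes were among the more abundant ones in these cells. The median member that passed the filter stood at 87.5 and 91.1 FPKM in KO and at 131 and 112 FPKM in WT. The median of all genes tested was 9.68 FPKM over the 4 libraries, a level that 77 of the 80 members exceeded. All 84 together held 2.15% and 2.21% of the summed FPKM in KO and 2.10% and 2.07% in WT. The level per length differed between the complexes. Over the 4 libraries the median member lay between 63.5 and 93.2 FPKM for complex I and between 79.0 and 111 FPKM for complex II. It lay between 141 and 196 for complex III, between 179 and 261 for complex IV and between 176 and 283 for complex V. The ranges of complexes I and II overlap, as do those of III, IV and V.

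**Figure D1:**
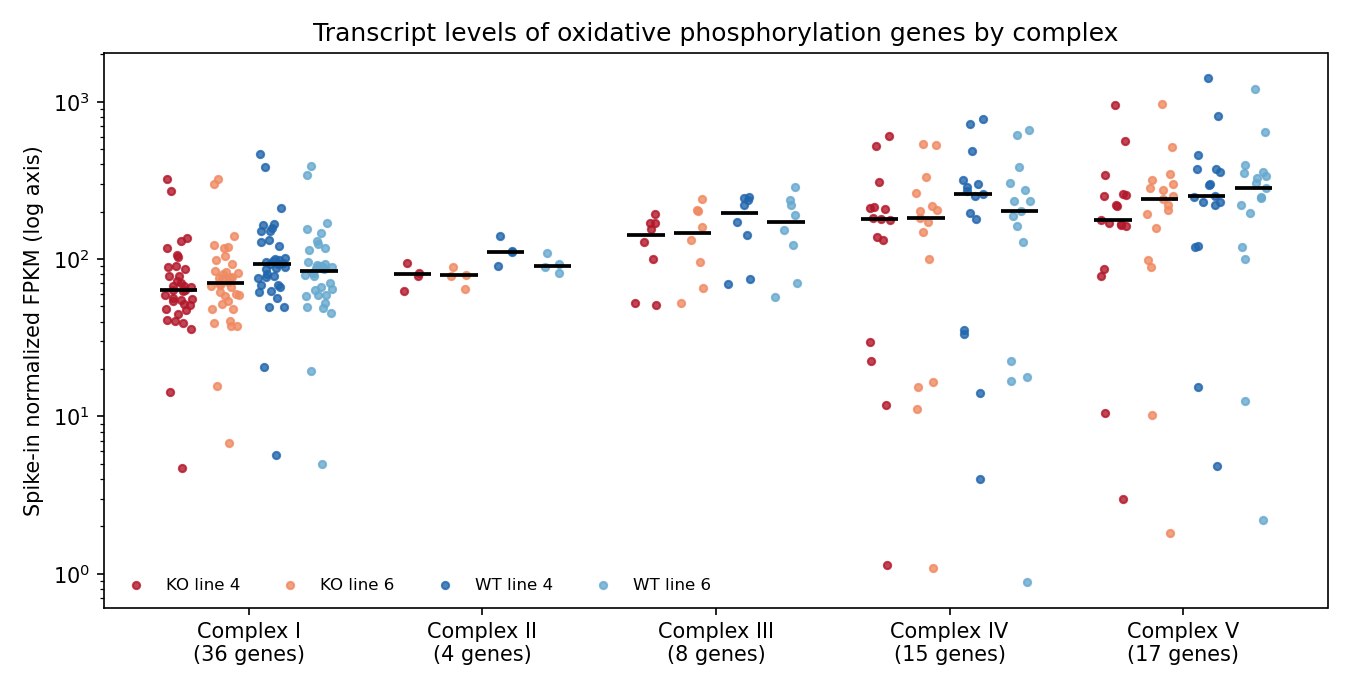
Spike-in normalized FPKM (log axis) of the 80 genes that passed the filter, by complex and library; each point is a gene and each bar the median of its library. Within every complex the KO library of a line has a lower median than the WT library of that line, and the complex I median, between 63.5 and 93.2 FPKM, is below those of complexes III, IV and V.

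Within a complex, transcript levels were uneven although its subunits assemble together. Complex II was the most even, from 80.1 FPKM for Sdhd to 108 FPKM for Sdha (means over the 4 libraries), a range of 1.35-fold. Complex III ran from 58.2 FPKM for Uqcrfs1, the Rieske iron-sulfur protein, to 243 FPKM for Uqcrh, the hinge protein, or 4.17-fold. Complex I spanned 64.7-fold, from Ndufs5 at 5.52 FPKM to Ndufa7 at 357 FPKM. Ndufs5 shares 72.1% of its 50-base coding stretches with a processed pseudogene, so its level and this span are uncertain. After Ndufs5 the next lowest were Ndufa11, at 17.5 FPKM, and Ndufa8, at 42.1 FPKM. Ndufa4, at 341 FPKM, keeps its complex I name but is now assigned to complex IV. By its name it was counted with complex I in all sums, counts and medians here. The 15 tested members of complex IV spanned 364-fold and the 17 of complex V 383-fold, and 4 further genes of complex IV averaged under 1 FPKM. In both complexes the low end was held by genes that are tissue isoforms or no structural subunits. Those that are no structural subunits are Cox4nb, an older name of Emc8, a subunit of an endoplasmic reticulum membrane complex, at 15.1 FPKM, Atp5s, coupling factor B, at 2.97 FPKM, and Atp5sl, now Dmac2, a factor of complex I assembly, at 12.2 FPKM. The highest member of all was Atp5b, the catalytic β subunit of ATP synthase, at 1136 FPKM, followed by Cox4i1, at 644 FPKM, Atp5a1, the α partner of Atp5b, at 633 FPKM, and Cox7c, at 601 FPKM.

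No member passed the test between KO and WT. Over all genes, limma called 2 of 11932 at an adjusted p under 0.05, or 0.0168%, and 0 of the 80 members. At an unadjusted p under 0.05, 12 members were lower in KO and 0 higher, against 5.46% lower and 0.0838% higher among all genes. Both KO clones were below both WT clones for 69 of the 80 members, where 59.8% of all genes had this pattern, and above them for 0, where 0.268% did. The shares of all genes are over all levels, and genes of the members' level were not compared. In both lines, 78 members were lower in KO, beside 86.3% of all genes. The exceptions were Ndufs5 and Cox4i2. The count of genes called was 20 without WT replicate 1, 133 without WT replicate 2 and 0 without either KO replicate, and 95, or 0.796%, with the founder line as a block. Under each of these the count of members called was 0. A p here rests in part on the spread between clones of separate founder lines.

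On the log2(FPKM + 1) scale and with the filter, the median member lay slightly below the median gene in both lines. Its log2 fold change was -0.37, or -0.049 relative to the median gene, with -0.050 in line 4 and -0.060 in line 6. In all, 64 of 80 members lay below the median gene, which by construction 50% of all genes do, and 40 did so in both lines, against 27.1% of all genes. The interquartile range of the members' log2 fold changes was 0.094, against 0.15 for all genes tested. However, 77 of the 80 members lay above the median level of all genes tested, 9.68 FPKM. Genes of like level were not compared, so a narrow range is not shown to be particular to the members. Across members, which share libraries and are not independent, the changes in line 4 and line 6 had a Pearson's r of -0.14 and a Spearman's rho of -0.069 (n = 80 genes), against r = 0.11 over all genes tested. The place of the members relative to other genes depended on the yardstick. Summed FPKM of the 84 members in KO was 0.703 of that in WT in line 4 and 0.844 in line 6. The same ratio for the FPKM of all genes was lower, at 0.687 in line 4 and 0.791 in line 6. With a pseudocount of 0.1 FPKM the median member lay at -0.017 from the median gene and with quantile normalization at 0.017. Without a filter on low values it lay farther below, at -0.22. It was -0.081, -0.032, -0.034 and -0.065 without KO replicate 1, KO replicate 2, WT replicate 1 and WT replicate 2. With quantile normalization the log2 fold changes of 15 members named here turned positive, among them Atp5b at 0.071, Cox4i1 at 0.090 and Uqcrfs1 at 0.084.

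**Figure D2:**
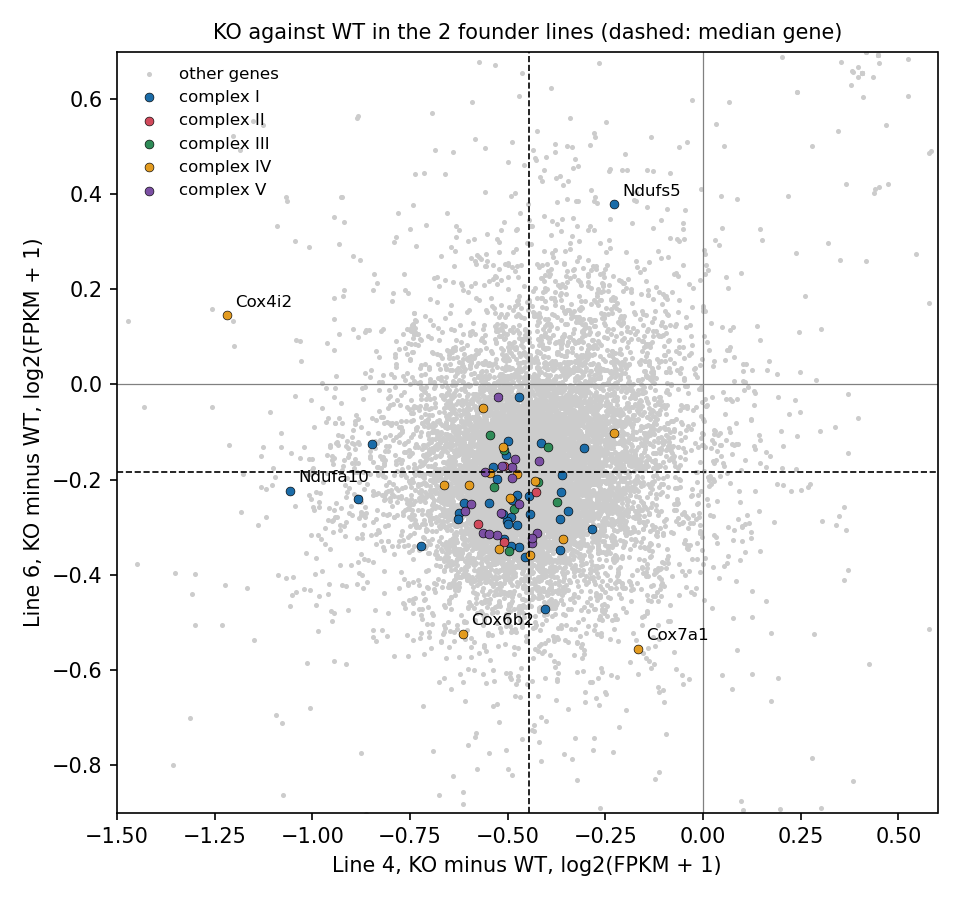
Difference between KO and WT on log2(FPKM + 1) in line 4 (horizontal axis) and line 6 (vertical axis); grey points are the other genes tested, coloured points the 80 members by complex, and dashed lines the median gene, at -0.44 and -0.19. Most members lie around and slightly below the crossing of the dashed lines, and Ndufs5, Cox4i2, Ndufa10, Cox7a1 and Cox6b2 are among those farther out; other genes beyond the axes are not drawn.

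The 36 transcripts named for complex I summed to 2841 and 3009 FPKM in KO, against 4089 and 3573 FPKM in WT. These sums include Ndufa4, now assigned to complex IV, at 271 and 322 FPKM in KO and 382 and 390 FPKM in WT. Both KO sums were below both WT sums, at 0.695 of WT in line 4 and 0.842 in line 6, and the median member lay at -0.045 in line 4 and -0.073 in line 6 relative to the median gene. The largest difference was that of Ndufa10, an accessory subunit of the membrane arm, which stood at 78.4 and 98.1 FPKM in KO, against 164 and 115 FPKM in WT (log2 fold change -0.64, SE 0.23, limma adjusted p = 0.445). The KO clones were lower in both lines, with log2 differences of -1.06 in line 4 and -0.22 in line 6, and without WT replicate 1 the log2 fold change was -0.38. Ndufs1, the largest iron-sulfur subunit of the arm that oxidises NADH, stood at 50.9 and 59.6 FPKM in KO, against 94.7 and 70.5 FPKM in WT. Ndufb11 of the membrane arm stood at 40.9 and 39.3 FPKM in KO, against 68.1 and 49.9 FPKM in WT. Their log2 fold changes were -0.56 and -0.53. Ndufs5, an accessory subunit, was the single member of the complex above 0, at 4.69 and 6.76 FPKM in KO, against 5.66 and 4.96 FPKM in WT (log2 fold change 0.076, SE 0.27, limma adjusted p = 0.814). Its clones overlap, since the lowest and the highest value were both in KO, and its log2 fold change was 0.30, -0.15, 0.16 and -0.0039 without KO replicate 1, KO replicate 2, WT replicate 1 and WT replicate 2.

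Complex II, succinate dehydrogenase, is wholly nuclear-encoded and links the chain to the citrate cycle. Sdha, its flavoprotein, stood at 94.3 and 88.7 FPKM in KO, against 141 and 109 FPKM in WT (log2 fold change -0.43, SE 0.21, limma adjusted p = 0.445). Sdhb, the iron-sulfur subunit, stood at 81.9 and 79.4 FPKM in KO, against 111 and 93.0 FPKM in WT. Sdhc, a membrane anchor, stood at 78.4 and 64.8 FPKM in KO, against 112 and 81.8 FPKM in WT. Sdhd, the other anchor, stood at 63.1 and 78.5 FPKM in KO, against 90.2 and 88.5 FPKM in WT. For all 4 genes both KO clones were below both WT clones, as for 59.8% of all genes tested. The log2 fold changes of Sdhb, Sdhc and Sdhd were -0.33, -0.42 and -0.34 (limma adjusted p = 0.445 for each). Their median lay at -0.065 in line 4 and -0.075 in line 6 relative to the median gene and at -0.063 over both lines. It was -0.16, 0.022, 0.013 and -0.15 without KO replicate 1, KO replicate 2, WT replicate 1 and WT replicate 2. With quantile normalization Sdhb and Sdhd were at 0.030 and 0.024.

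Over both lines and in the main fit, complex III lay closest to the median gene of the 5 complexes. The rank depended on the processing. With a pseudocount of 0.1 FPKM complex IV, at -0.014, lay closer than complex III. With quantile normalization complex III, at 0.038, lay farthest. The following values are those of complex III. Its 8 transcripts summed to 1016 and 1155 FPKM in KO, against 1409.6 and 1343 FPKM in WT, and both KO clones were below both WT clones for all 8, as for 59.8% of all genes tested. The median lay at -0.045 in line 4 and -0.025 in line 6 relative to the median gene and at -0.0079 over both lines. It was 0.0052, -0.066, -0.062 and -0.010 without KO replicate 1, KO replicate 2, WT replicate 1 and WT replicate 2, and 0.026 with a pseudocount of 0.1 FPKM. Uqcrc2, a core protein, had the most negative log2 fold change and stood at 100.3 and 96.3 FPKM in KO, against 142 and 123 FPKM in WT (log2 fold change -0.42, SE 0.20, limma adjusted p = 0.445). Uqcrfs1, the Rieske protein, carries electrons within the complex on their way to cytochrome c. It had the least negative log2 fold change and stood at 52.8 and 52.6 FPKM in KO, against 69.8 and 57.7 FPKM in WT (log2 fold change -0.26, SE 0.22, limma adjusted p = 0.445). The whole complex thus spanned -0.42 to -0.26, less than the SE of either gene.

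In complex IV the widely expressed subunits had similar values, and its minor isoforms lay farther apart. Of its 19 genes, 15 were tested, and for 10 of these both KO clones were below both WT clones, a share near the 59.8% of all genes tested. The clones overlapped for Cox4i2, Cox6b2, Cox7a1, Cox7a2l and Cox4nb. The 19, without Ndufa4, summed to 2942 and 2937 FPKM in KO, against 4144 and 3453 FPKM in WT. The 10 widely expressed subunits Cox4i1, Cox5a, Cox5b, Cox6a1, Cox6b1, Cox6c, Cox7a2, Cox7b, Cox7c and Cox8a had log2 fold changes from -0.44 for Cox6c to -0.31 for Cox8a. That of Cox8a was -0.31, -0.31, -0.049 and -0.56 without KO replicate 1, KO replicate 2, WT replicate 1 and WT replicate 2. Cox4i1, the widely expressed subunit IV, stood at 605 and 530.0 FPKM in KO, against 777 and 664 FPKM in WT (log2 fold change -0.34, SE 0.19, limma adjusted p = 0.445). The complex's median lay at -0.067 in line 4 and -0.026 in line 6 relative to the median gene, at -0.049 over both lines. It was -0.13, 0.010, 0.024 and -0.11 without KO replicate 1, KO replicate 2, WT replicate 1 and WT replicate 2. Cox6b2, known as the testis isoform of subunit VIb, had the lowest log2 fold change and stood at 22.7 and 15.3 FPKM in KO, against 35.2 and 22.5 FPKM in WT (log2 fold change -0.57, SE 0.26, limma adjusted p = 0.445). It was -0.84, -0.30, -0.26 and -0.88 when those libraries were left out in the same sequence, and with a pseudocount of 0.1 FPKM Cox4i2, at -0.73, was lower than Cox6b2, at -0.59. With quantile normalization Cox4i2 was lower too, at -0.29 beside -0.23 for Cox6b2. Cox4nb, which is no subunit of the oxidase, had the highest and stood at 11.8 and 16.6 FPKM in KO, against 14.0 and 17.9 FPKM in WT (log2 fold change -0.16, SE 0.25, limma adjusted p = 0.604). For Cox4nb it was 0.14 on centred values and, leaving out single libraries, -0.39 to 0.062, above 0 without KO replicate 1.

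Complex V had the most uniform KO values of the large complexes by the standard deviation of the log2 fold changes. It was 0.050 over its 17 genes, against 0.11 for complex I, 0.097 for complex IV and 0.18 for all genes tested. The last value is over genes of all levels. The smaller complexes II and III had 0.055 and 0.049. By interquartile range, complex V lay nearer the others, at 0.078 against 0.094 for complex I and 0.093 for complex IV. The transcripts of complex V summed to 4078 and 4482 FPKM in KO, against 5825 and 5349.9 FPKM in WT. The median lay at -0.071 in line 4 and -0.067 in line 6 relative to the median gene. Atp5b, the β subunit, stood at 954 and 971 FPKM in KO, against 1411 and 1206 FPKM in WT (log2 fold change -0.44, SE 0.19, limma adjusted p = 0.445), the lowest log2 fold change of the complex. Atp5k, which encodes subunit e of the membrane part, stood at 260.2 and 349 FPKM in KO, against 375 and 356 FPKM in WT (log2 fold change -0.28, SE 0.20, limma adjusted p = 0.445), the highest. The difference lay almost wholly in line 4. The catalytic head with its central stalk (Atp5a1, Atp5b, Atp5c1, Atp5d and Atp5e) ran from -0.44 to -0.32, from Atp5b to Atp5d. The other stalk and membrane subunits Atp5f1, Atp5h, Atp5j, Atp5o, Atp5j2, Atp5k, Atp5l and the 3 Atp5g genes ran from -0.44 for Atp5j to -0.28 for Atp5k, so the parts of the enzyme overlap.

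Subunit c, which forms the rotating ring of ATP synthase, is encoded by 3 genes whose products differ in the part that is removed on import into mitochondria. The last 228 bases of each coding sequence, from GENCODE M21 and including the stop codon, are shown to compare the 3 transcripts with each other. Capitals mark the 58 positions where they do not all have the same base.
Atp5g1 (chromosome 11): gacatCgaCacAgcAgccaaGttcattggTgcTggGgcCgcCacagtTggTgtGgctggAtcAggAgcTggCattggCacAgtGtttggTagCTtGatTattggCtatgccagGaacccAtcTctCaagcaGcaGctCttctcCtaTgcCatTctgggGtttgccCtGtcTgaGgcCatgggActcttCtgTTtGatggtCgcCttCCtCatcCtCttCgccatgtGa
Atp5g2 (chromosome 15): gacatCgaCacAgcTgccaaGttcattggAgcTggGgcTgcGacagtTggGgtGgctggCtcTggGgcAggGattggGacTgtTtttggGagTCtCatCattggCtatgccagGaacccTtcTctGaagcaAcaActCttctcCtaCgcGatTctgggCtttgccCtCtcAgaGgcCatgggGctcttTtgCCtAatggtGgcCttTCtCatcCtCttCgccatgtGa
Atp5g3 (chromosome 2): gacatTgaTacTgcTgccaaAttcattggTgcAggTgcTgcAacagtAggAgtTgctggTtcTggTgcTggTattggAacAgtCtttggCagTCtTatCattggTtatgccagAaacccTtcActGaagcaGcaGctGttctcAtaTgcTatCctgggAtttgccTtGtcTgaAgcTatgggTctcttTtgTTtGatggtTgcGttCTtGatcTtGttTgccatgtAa
No run of more than 8 bases is identical in all 3, and the closest pair, Atp5g1 and Atp5g2, is identical at 85.1% of positions with no identical run over 21 bases. Of their 50-base coding stretches, however, Atp5g2 and Atp5g1 share 100% and 99.7% with processed pseudogenes, so the levels of both are uncertain. Atp5g3 shares none. All 3 were listed at high levels. Atp5g2 was the highest, at 342 and 318 FPKM in KO, against 459.8 and 395 FPKM in WT. Atp5g3 stood at 216 and 273 FPKM in KO, against 301 and 325 FPKM in WT. Atp5g1 stood at 164 and 222 FPKM in KO, against 220.0 and 248 FPKM in WT. The log2 fold changes of Atp5g1, Atp5g2 and Atp5g3 in KO were -0.29, -0.37 and -0.36 (limma adjusted p = 0.445 for each). With quantile normalization they were 0.10, 0.021 and 0.052, and on values centred on the median gene that of Atp5g1 was 0.016. Between the lines, Atp5g1 and Atp5g3 were higher in line 6 in both genotypes and Atp5g2 lower in both (log2 differences 0.30, 0.22 and -0.16), and none passed the test on uncentred values (limma adjusted p = 0.999 for each). On centred values Atp5g1 passed (limma adjusted p = 0.0217), and with genotype as a term on centred values both Atp5g1 and Atp5g3 did (limma adjusted p = 0.0228 and 0.0480). Both also passed with quantile normalization (limma adjusted p = 0.0221 and 0.0244).

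On uncentred values and without genotype as a term, the test between the founder lines called 1 member. More were called on centred values, as given below. Over all genes, limma called 236 of 11932 between line 6 and line 4, or 1.98%, and among the 80 members it called Cox7a1, which was lower in line 6. By direction, 1.03% of all genes were called lower and 0.947% higher in line 6, against 1 and 0 of the 80 members. Cox7a1 encodes the isoform of subunit VIIa known from heart and skeletal muscle, and stood at 11.1 and 16.8 FPKM in KO and WT of line 6, against 29.8 and 33.6 FPKM in line 4 (log2 difference -1.15, SE 0.34, limma adjusted p = 0.0428). Both libraries of line 6 were below both of line 4, with a ratio of the means of 0.442. Without WT replicate 2 or KO replicate 2, which leaves 1 library of line 6, the log2 difference was -1.43 and -0.87 and the call ended (limma adjusted p = 1.00 for both). Without a filter it ended too (limma adjusted p = 0.348), and with genotype as a term it held (limma adjusted p = 5.09e-06). The count of members called was 1, 0, 4 and 0 without WT replicate 1, WT replicate 2, KO replicate 1 and KO replicate 2. The 6 other heart and skeletal muscle markers were each under 1 FPKM in all libraries, from Myl2 at 0.00924 to 0.0728 FPKM to Myh6 at 0.469 to 0.895 FPKM. Of these, 3 were higher and 0 lower in line 6 in both genotypes. Of the 14 feeder fibroblast markers, 3 were higher and 6 lower in line 6 in both genotypes; their part in the Cox7a1 values was not tested.

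Other members differed between the lines by less. Both libraries of line 6 were below both of line 4 for 6 of the 80 members, where 17.4% of all genes were, and above for 4, where 16.3% were. The interquartile range of their differences was 0.28, against 0.42 for all genes tested. Genes of like level were not compared here either. On uncentred values, the line difference exceeded the genotype difference for 11 of 80 members (13.8%) and for 36.1% of all genes tested. The genotype difference there includes the shift of the median gene, -0.32, against -0.013 for the line difference. This count therefore does not rank line against genotype. By complex, the median member lay at -0.022 in line 6 relative to line 4 and to the median gene for complex I and -0.17 for complex II. It lay at 0.047 for complex III, -0.18 for complex IV and 0.057 for complex V. Without members of shared sequence the values for complexes III and V were -0.040 and 0.0042, and without a filter that for complex IV was -0.091. For complex II it was -0.18 in KO and -0.16 in WT, and for complex IV -0.12 in KO and -0.17 in WT. For complex I the median was 0.0058 without KO replicate 2 and 0.013 without WT replicate 1, and for complex V it was -0.0033 without WT replicate 2 and 0.0039 without KO replicate 1. Sdhc stood at 64.8 and 81.8 FPKM in KO and WT of line 6, against 78.4 and 112 FPKM in line 4 (log2 difference -0.36, SE 0.36, limma adjusted p = 0.99), while Sdhd of the same anchor had a log2 difference of 0.14. In complex I the lowest was Ndufa6, at 74.2 and 88.3 FPKM in KO and WT of line 6, against 90.3 and 132 FPKM in line 4 (log2 difference -0.43). The highest was Ndufa5, at 51.5 and 63.7 FPKM in KO and WT of line 6, against 40.3 and 49.3 FPKM in line 4 (log2 difference 0.36). In complex III the lowest and highest were Uqcrc1 and Uqcrh, at -0.19 and 0.27. In complex V the lowest was Atp5s, at 1.81 and 2.20 FPKM in KO and WT of line 6, against 2.99 and 4.87 FPKM in line 4 (log2 difference -0.69, SE 0.28, limma adjusted p = 0.299). The highest was Atp5l, subunit g, at 251 and 283 FPKM in KO and WT of line 6, against 162 and 232 FPKM in line 4 (log2 difference 0.46, SE 0.38, limma adjusted p = 0.925).

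**Figure D3:**
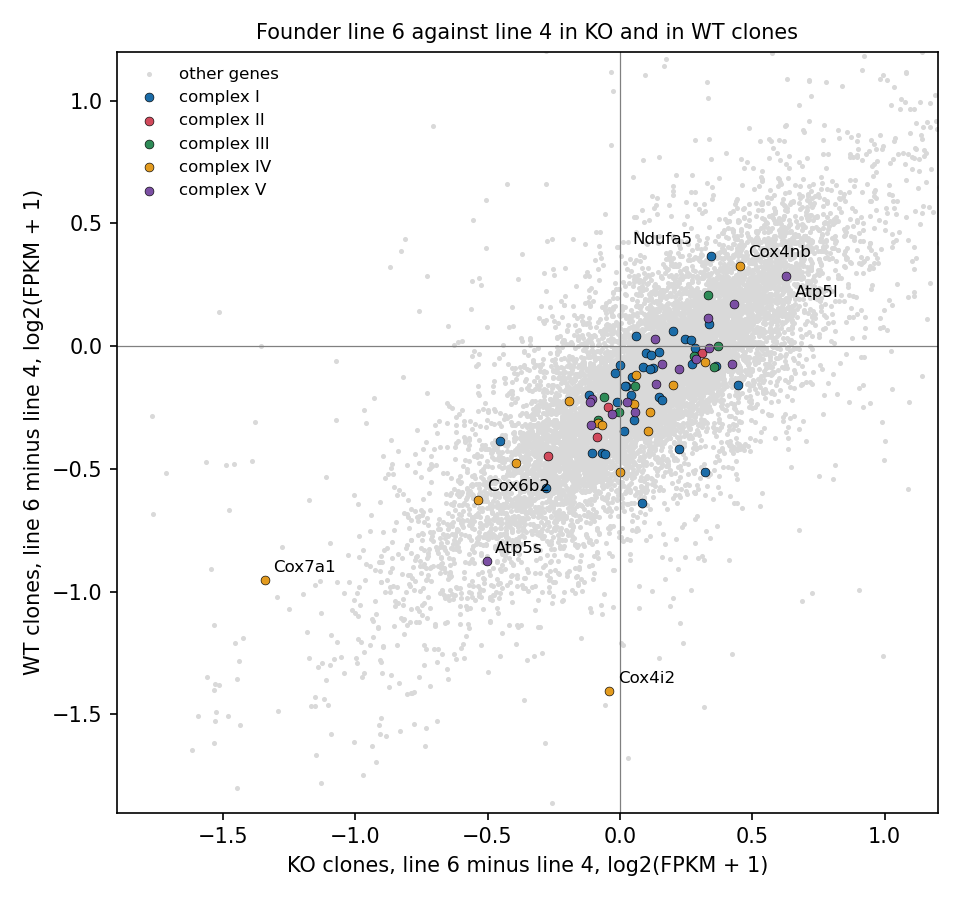
Difference between line 6 and line 4 on log2(FPKM + 1) in the KO clones (horizontal axis) and in the WT clones (vertical axis); grey points are the other genes tested and coloured points the 80 members by complex. Most members lie near 0 on both axes, Cox7a1, Atp5s and Cox6b2 are below 0 on both, Atp5l, Ndufa5 and Cox4nb are above 0 on both, and Cox4i2 is near 0 in KO and the lowest member in WT; other genes beyond the axes are not drawn.

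After each library was centred on its own median gene, which takes out the shift between KO and WT clones, more genes were called between the lines. There limma called 3602 genes. Of the members, 6 were higher in line 6 (Atp5g1, Atp5l, Cox4nb, Ndufa5, Ndufb2 and Uqcrh), beside 16.4% of all genes. A further 7 were lower (Atp5s, Cox6b2, Cox7a1, Cox7a2l, Ndufa6, Ndufv3 and Sdhc), beside 13.8%. The adjusted p on this scale ran from 0.00618 for Cox7a1 to 0.0498 for Ndufv3 (limma). The share of members called was thus below that of all genes in both directions. With genotype as a term and no centring, 3 members were called, all lower in line 6, namely Cox7a1, Cox4i2 and Atp5s, out of 1089 genes called. Of all genes tested, 5.46% were called lower and 3.67% higher.

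Several subunits of complex IV have more than 1 gene, and in each such family the widely expressed gene had the highest level. Cox4i2, the isoform of subunit IV linked to lung and to low oxygen, averaged 1.77 FPKM over the 4 libraries, against 644 FPKM for Cox4i1. It stood at 1.14 and 1.08 FPKM in KO, against 3.98 and 0.881 FPKM in WT (log2 fold change -0.54, SE 0.34, limma adjusted p = 0.445). The WT clone of line 4 was above the other 3 libraries, which lay within 0.881 to 1.14 FPKM. Without WT replicate 1 its log2 fold change was 0.17. Cox6b2 averaged 23.9 FPKM beside 275 FPKM for Cox6b1. Cox7a1 averaged 22.8 FPKM beside 219 FPKM for Cox7a2 and 135 FPKM for Cox7a2l, which encodes a factor that joins complexes III and IV. By genotype, Cox7a1 stood at 29.8 and 11.1 FPKM in KO, against 33.6 and 16.8 FPKM in WT (log2 fold change -0.36, SE 0.36, limma adjusted p = 0.469). The value was 0.12 without WT replicate 1 and 0.31 without KO replicate 2. Cox7a2l, Cox6b2 and Cox7a1 were each lower in line 6 in both genotypes, while Cox7a2 and Cox6b1 had log2 differences of 0.022 and 0.13 between the lines. Cox6a1 (201 FPKM), Cox7b (161 FPKM) and Cox8a (206 FPKM) had KO log2 fold changes of -0.37, -0.32 and -0.31.

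The 4 members that did not pass the filter are the other minor isoforms of complex IV. Cox6a2, the heart and muscle isoform of subunit VIa, was listed at 0.00988 and 0.00924 FPKM in KO and 0.0952 and 0.0703 FPKM in WT, and Cox8b, the heart and muscle isoform of subunit VIII, at 0.00991 and 0.00937 FPKM in KO and 0.0871 and 0.0107 FPKM in WT. Cox7b2 was listed at 0.594 and 0.725 FPKM in KO and 0.314 and 0.522 FPKM in WT and Cox8c at 0.121 and 0.188 FPKM in KO and 0.0102 and 0.180 FPKM in WT. Cox7b2 had the higher value in KO in both lines and was under 1 FPKM throughout. Each of the other 3 is at or near the value of genes without signal in at least 1 library, and a difference was not detectable at such levels.

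**Figure D4:**
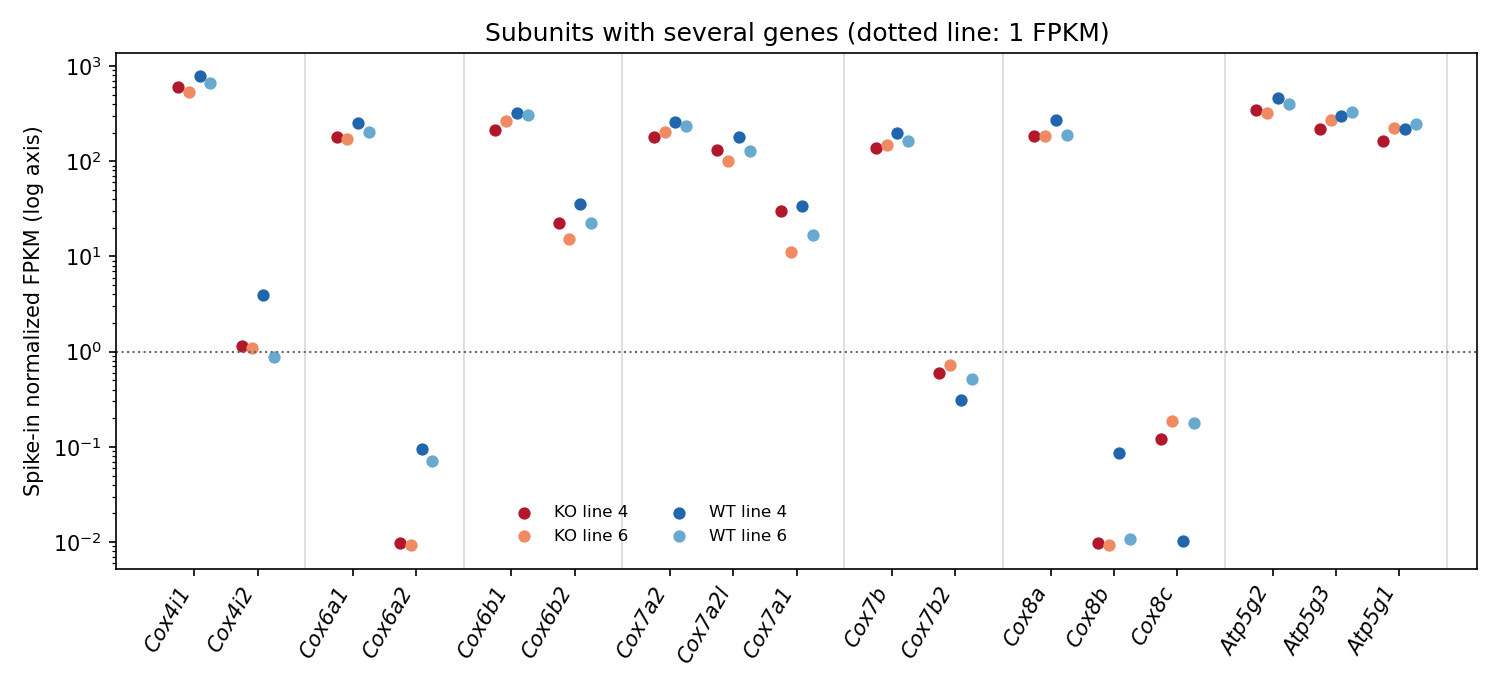
Spike-in normalized FPKM (log axis) of the subunits that have several genes, each with 4 points for the KO clones of lines 4 and 6 and then the WT clones; the dotted line marks 1 FPKM. In each family of complex IV the widely expressed gene has the highest values and Cox6a2, Cox7b2, Cox8b and Cox8c are below the line, while the 3 genes of subunit c lie between 164 and 459.8 FPKM.

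No other listed gene of the pathway was called in either comparison. Among 9 electron carriers and subunits whose names the rule does not catch, 0 were called and the median log2 fold change in KO was -0.31, or 0.0096 relative to the median gene. Cyc1 of complex III and Cycs, cytochrome c, had -0.38 and -0.28 (limma adjusted p = 0.445 for both). Assembly factors were listed at lower levels than subunits, with a median of 17.5 FPKM for the 9 tested for complex I and 9.59 FPKM for the 12 tested for complex IV. For complexes I and IV, their medians relative to the median gene were 0.028 and -0.017. The 3 tested for complex III lay at -0.047, the 2 for complex II at 0.11 and the 3 for complex V at 0.037, and 0 of these genes were called. All 16 genes of the citrate cycle and pyruvate dehydrogenase were lower in KO in both lines, as were 86.3% of all genes tested. Of the 16, 14 lay below the median gene on log2(FPKM + 1) with the filter, which by construction 50% of all genes do. The median of the 16 was -0.37, or -0.052 relative to the median gene, close to that of the subunits (-0.049) on the same scale. The value of the subunits depended on the processing, and no other processing is given for these 16 genes. Pdhb, a subunit of pyruvate dehydrogenase, had the lowest value there, -0.52 (limma adjusted p = 0.445). Of 12 regulators of respiratory genes and of mitochondrial transcription, 10 were tested and 0 called, with a median of -0.0024 relative to the median gene. Nrf1, Gabpa and Yy1, transcription factors known to bind promoters of respiratory genes, had log2 fold changes of -0.23, -0.41 and -0.35, and the coactivator Ppargc1a was listed at 0.0146 and 0.00934 FPKM in KO and 0.0180 and 0.0167 FPKM in WT.

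The promoters of the members were searched for motifs of these factors. RefSeq windows of 300 bases (250 before and 50 after the gene start, build GRCm38.p6) were on hand for 69 of the 84 members. On either strand, the core of the NRF1 motif, gcatgcgc, was found in 10 of 69 members (13.3% of their 75 windows, against 3.51% for all protein-coding genes). The ETS motif that GABPA binds, ccggaag, was found in 16 of 69 members (21.3% of their 75 windows, against 11.6% for all protein-coding genes), and the YY1 motif aagatggc in 11 of 69 members (16% of their 75 windows, against 3.04% for all protein-coding genes). The E-box cacgtg, which Myc and other factors bind, was found in 7 of 69 members (12% of their 75 windows, against 7.83% for all protein-coding genes), and the SP1 motif gggcgg in 28 of 69 members (38.7% of their 75 windows, against 46.2% for all protein-coding genes). The TATA motif tataaa was found in 7 of 69 members (10.7% of their 75 windows, against 12.6% for all protein-coding genes), and ccaat in 31 of 69 members (42.7% of their 75 windows, against 38.2% for all protein-coding genes). A match describes letters, not binding. The 250 bases before the start are shown for a widely expressed subunit, for the isoform that differed between the lines and for the subunit with the highest log2 difference in line 6, with matches to the first 4 motifs in capitals (the run of capitals nearer the 5′ end of Cox6a1 is the NRF1 core on both strands, overlapping).
Cox6a1 (chr5:115348959-115349208, minus strand): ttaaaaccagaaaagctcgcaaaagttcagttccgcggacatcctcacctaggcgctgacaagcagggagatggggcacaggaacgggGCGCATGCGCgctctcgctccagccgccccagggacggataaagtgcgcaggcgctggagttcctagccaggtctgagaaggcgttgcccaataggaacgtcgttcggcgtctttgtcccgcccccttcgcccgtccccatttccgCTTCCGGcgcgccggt
Cox7a1 (chr7:30183921-30184170, plus strand): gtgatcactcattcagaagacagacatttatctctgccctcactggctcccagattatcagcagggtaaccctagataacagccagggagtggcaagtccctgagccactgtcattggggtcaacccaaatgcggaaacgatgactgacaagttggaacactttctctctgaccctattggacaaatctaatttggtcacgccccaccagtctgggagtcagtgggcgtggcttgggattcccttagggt
Atp5l (chr9:44920743-44920992, minus strand): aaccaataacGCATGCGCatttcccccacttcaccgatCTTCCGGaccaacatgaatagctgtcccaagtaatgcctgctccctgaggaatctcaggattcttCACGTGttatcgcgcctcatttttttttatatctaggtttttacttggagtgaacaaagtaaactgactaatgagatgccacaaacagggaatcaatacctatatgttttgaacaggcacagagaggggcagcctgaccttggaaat
Cox6a1 holds the NRF1 core and the ETS motif, and Atp5l holds both and an E-box (another ETS match lies outside the stretch shown). Cox7a1 holds none of the 4, which says only that these letters are not in its window. Of other widely expressed complex IV genes with a window, Cox5a, Cox5b, Cox7a2, Cox7b and Cox7c also hold none of the 4. Cox6b1 and Cox8a hold the ETS motif.

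Many of these short genes have processed pseudogenes, and reads from near-identical copies can be lost or moved in counting. Of the 84 coding sequences in GENCODE M21, 42 share at least 1 stretch of 50 bases with an annotated transcript of another gene, 33 of them with a pseudogene, and 13 share more than 50% of their stretches. For Atp5g2, Atp5l, Cox7c and Ndufb4 the share is 100%, and for Atp5g1 it is 99.7%. Ndufs5, the lowest member of complex I at 5.52 FPKM, shares 72.1% of its stretches, the most of them with the processed pseudogene BC002163. The levels of the 13 are uncertain for this reason. Their median level was 214 FPKM, against 96.3 FPKM for the 67 others tested. The sources used here do not say how reads with several matches were counted, and the part of such copies in these levels was not tested. Without the 13, the median member lay at -0.049 relative to the median gene in KO and at -0.057 in line 6 against line 4.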

How the data were processed

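RNA of 4 clones (2 KO, 2 WT) was sequenced after removal of ribosomal RNA, and 1 µg of RNA received ERCC spike-in mix 1 or 2 before library preparation, per the labels' protocols, which do not tie a mix to a clone. The values the authors deposited are FPKM after spike-in normalization, as the file headers say. The sources used here do not say how the spike-ins set the scale. The submitters' processing notes list edgeR, HTSeq, affy, TopHat2 2.0.9, Bowtie 0.12.8 and build mm9, giving none of them a role. Each file held 23376 entries, of which 92 spike-ins and 25 without a partner of the same name were left out. Depth is unknown, so no counting interval is given.

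The scale is log2(FPKM + 1), on which changes of low genes come out too small. Genes averaging 1 FPKM or more over the libraries went into limma 3.58.1 in R 4.3.3 (eBayes with a trend, two-sided, Benjamini-Hochberg over 11932 genes, threshold 0.05), KO against WT and line 6 against line 4, each without the other factor. A robust estimate of the spread and quantile normalization are among the alternatives. The code was tested on simulated data. The replicate number is the founder line, so numbers pair the samples; deviations of clones of the same number correlated at r = 0.70 across genes. The fit with line as a block gave an infinite prior df, so each gene received the spread of its level; so did the fit between lines. Members, gene lists and the rule for naming genes (per complex the extremes in level and in each difference, complex II, families of isoforms, and members that go opposite ways in the lines) were chosen with earlier results of these data known. Ndufs1, Ndufb11, Ndufa11, Ndufa8, Cox7c and Pdhb were named after their values were seen. Relative values are minus the median of all genes tested. Sequences are from GENCODE M21 and RefSeq (GRCm38.p6), not the files' build, and no coordinates were carried over. All 84 symbols matched RefSeq, 4 as older names.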

Additional observations from a re-analysis of the deposited data

Results flagged for a closer look

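For 2 members the KO clone was lower than WT in line 4 and higher in line 6, unlike the 78 others that passed the filter. Cox4i2, the isoform of subunit IV linked to low oxygen, differed by -1.22 on the log2 scale in line 4 and by 0.15 in line 6, 1.37 apart. Ndufs5 of complex I differed by -0.23 in line 4 and by 0.38 in line 6, 0.606 apart. With 1 KO and 1 WT clone per line the difference between the lines was not tested. Both are low, at means of 1.77 and 5.52 FPKM, against 87.5 to 131 FPKM for the median member.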

How the results depend on the processing

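In KO against WT, 0 members were called under every alternative run, and the 2 genes called overall became 0 without a filter, on centred values and with quantile normalization, 95 with the founder line as a replicate block (4 higher, 91 lower) and 33 with the block on centred values (31 higher, 2 lower). Without single libraries the count ran from 0 to 133. The block changed no call of a member. The median member relative to the median gene was, with a pseudocount of 0.1 FPKM, -0.017 for all members, -0.025 for complex I, -0.031 for complex II, 0.026 for complex III, -0.014 for complex IV and -0.029 for complex V. Without a filter it was -0.22 for all members, -0.23 for complex I, -0.23 for complex II, -0.18 for complex III, -0.20 for complex IV and -0.22 for complex V, and with quantile normalization 0.017 for all members, -0.0092 for complex I, -0.018 for complex II, 0.038 for complex III, 0.032 for complex IV and 0.034 for complex V. It was -0.064 for complex V without members of shared sequence, an alternative added after the data were seen, as was leaving out Cox4nb, Atp5s and Atp5sl, under which no median moved beyond the spread. Without single libraries these medians ran from -0.081 to -0.032 for all members, -0.092 to -0.037 for complex I, -0.16 to 0.022 for complex II, -0.066 to 0.0052 for complex III, -0.13 to 0.024 for complex IV, -0.082 to -0.034 for complex V. Single log2 fold changes in KO changed sign on centred values, with and without the block, for Atp5g1 at 0.016, Atp5k at 0.030, Cox4nb at 0.14 and Uqcrfs1 at 0.041, and with quantile normalization for Atp5b at 0.071, Atp5g1 at 0.10, Atp5g2 at 0.021, Atp5g3 at 0.052, Atp5k at 0.15, Cox4i1 at 0.090, Cox4nb at 0.17, Cox6a1 at 0.033, Cox6b1 at 0.010, Cox7a2 at 0.037, Cox7b at 0.043, Cox8a at 0.11, Sdhb at 0.030, Sdhd at 0.024 and Uqcrfs1 at 0.084. Without single libraries Cox4i2 ran from -1.24 to 0.17, Cox4nb ran from -0.39 to 0.062, Cox7a1 ran from -1.03 to 0.31, Ndufs5 ran from -0.15 to 0.30. Between the lines, 236 genes and 1 member were called, against 0 and 0 without a filter, 3602 and 13 on centred values, 3865 and 21 with quantile normalization, 1089 and 3 with genotype as a term, and 3531 and 13 with that term on centred values; without single libraries the counts ran from 7 to 1607 genes and from 0 to 4 members. The median was -0.091 for complex IV without a filter, -0.053 for complex I and -0.20 for complex II with quantile normalization and -0.040 for complex III and 0.0042 for complex V without members of shared sequence. Without single libraries it ran from -0.077 to -0.022 for all members, -0.051 to 0.013 for complex I, -0.21 to -0.14 for complex II, -0.18 to -0.12 for complex IV, -0.0033 to 0.093 for complex V, and Atp5g2 ran from -0.37 to 0.053, Atp5g3 ran from -0.012 to 0.46, Cox6a1 ran from -0.44 to 0.052, Cox6b1 ran from -0.17 to 0.43, Cox7a2 ran from -0.25 to 0.29, Cox7b ran from -0.33 to 0.18, Cox8a ran from -0.54 to 0.025, Sdha ran from -0.52 to 0.059, Sdhb ran from -0.36 to 0.069, Sdhd ran from -0.11 to 0.40, Uqcrc1 ran from -0.43 to 0.050. The causes of these shifts were not tested. With unknown depth, counting error could not be given, and levels near that of genes without signal could not be compared.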
